A study of Mus musculus with 18 samples.

Results

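The genes described here are the working parts of chromosome duplication: 45 genes for origin licensing, the replicative helicase, the polymerases, the sliding clamp and its loader, nucleotide synthesis and control of the fork. They were taken by name from the 24062 gene symbols of a read count table, not by a threshold on measured values. All 45 were in the table, and all 45 were among the 12859 genes that passed the filter on low counts.

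RNA was measured in cultures of mouse LSPC, an abbreviation the labels do not spell out, made by infecting bone marrow cells without lineage markers with a retrovirus carrying MLL-AF9, a leukemia fusion gene. Every culture therefore carried MLL-AF9, and every culture carried Rosa-CreERT, a Cre recombinase that 4-hydroxytamoxifen (4OHT) activates. By Ddx41 genotype the lines were +/+ (WT), +/flox (Het) and flox/flox (FF), and each was kept for 48 h in 1 µM 4OHT or in the ethanol vehicle (EtOH). After 4OHT the labels call the Het libraries +/- and the FF libraries -/-. This gave 6 groups of 3 libraries, lettered A to C, 18 in all. The controls saw Cre without 4OHT, and WT saw 4OHT without a floxed allele. Nothing in the labels says how many lines stand behind a genotype or that letters are separate cultures, so genotype and line cannot be told apart and the p-values measure only the spread between these libraries. Of the progenitor markers, Kit averaged 91.9 CPM (counts divided by the size of the library, on one scale for all libraries) in FF EtOH and Elane 3878 CPM, but Cd34 and Flt3 were close to absent at 0.29 and 0.16 CPM.

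DNA replication begins when the origin recognition complex, Cdc6 and Cdt1 load the Mcm2 to Mcm7 ring onto DNA. Cdc45 and the GINS complex join the ring to make the active helicase, polymerase alpha with primase lays down primers, and polymerases delta and epsilon extend them while held by the PCNA ring, which replication factor C loads. Many of these genes are transcribed in waves at the border of G1 and S under E2F factors, so that their RNA in a bulk culture follows both the share of cycling cells and the amount per cell. In such samples fewer cells in S phase and less RNA per cell cannot be told apart.

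The promoters of 6 members are printed to show the sequence that the members have, or lack, in common. They cover 250 bases before and 50 bases after the gene start, from RefSeq on GRCm38.p6, in the direction of the gene. Capitals mark a match to an E2F motif, searched on both strands as TTTGGCGC, TTTCCCGC, TTTCGCGC and TTTGCCGC. Rfc5 had the largest fall and no match. Mcm7, Pold1 and Clspn fell and had matches. Mcm6 and Cdt1 had matches and did not pass the test. Their positions are chr5:117388974-117389273 (minus strand) for Rfc5, chr5:138171834-138172133 (minus) for Mcm7, chr7:44548766-44549065 (minus) for Pold1, chr4:126556730-126557029 (plus) for Clspn, chr1:128359656-128359955 (minus) for Mcm6 and chr8:122567765-122568064 (plus) for Cdt1.
Rfc5: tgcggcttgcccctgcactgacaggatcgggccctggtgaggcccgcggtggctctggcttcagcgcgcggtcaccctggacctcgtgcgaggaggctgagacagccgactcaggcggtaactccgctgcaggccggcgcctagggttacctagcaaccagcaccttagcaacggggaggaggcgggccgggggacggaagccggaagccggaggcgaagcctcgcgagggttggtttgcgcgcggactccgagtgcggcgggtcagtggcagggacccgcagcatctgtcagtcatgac
Mcm7: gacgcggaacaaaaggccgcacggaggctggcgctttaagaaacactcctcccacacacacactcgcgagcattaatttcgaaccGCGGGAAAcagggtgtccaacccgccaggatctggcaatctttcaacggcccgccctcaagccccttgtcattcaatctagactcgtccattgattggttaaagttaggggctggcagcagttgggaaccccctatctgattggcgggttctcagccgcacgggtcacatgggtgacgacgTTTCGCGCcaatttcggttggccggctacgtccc
Pold1: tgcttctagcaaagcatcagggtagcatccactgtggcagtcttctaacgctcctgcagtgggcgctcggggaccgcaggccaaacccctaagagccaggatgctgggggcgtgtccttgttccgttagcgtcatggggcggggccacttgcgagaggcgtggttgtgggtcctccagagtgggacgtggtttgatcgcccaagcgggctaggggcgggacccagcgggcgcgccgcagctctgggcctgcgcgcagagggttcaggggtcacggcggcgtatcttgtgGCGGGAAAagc
Clspn: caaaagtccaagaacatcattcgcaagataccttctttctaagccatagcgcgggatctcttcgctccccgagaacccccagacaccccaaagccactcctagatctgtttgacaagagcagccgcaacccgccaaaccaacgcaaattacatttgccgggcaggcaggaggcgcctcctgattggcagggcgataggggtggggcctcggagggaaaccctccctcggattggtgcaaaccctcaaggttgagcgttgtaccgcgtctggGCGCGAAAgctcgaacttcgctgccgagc
Mcm6: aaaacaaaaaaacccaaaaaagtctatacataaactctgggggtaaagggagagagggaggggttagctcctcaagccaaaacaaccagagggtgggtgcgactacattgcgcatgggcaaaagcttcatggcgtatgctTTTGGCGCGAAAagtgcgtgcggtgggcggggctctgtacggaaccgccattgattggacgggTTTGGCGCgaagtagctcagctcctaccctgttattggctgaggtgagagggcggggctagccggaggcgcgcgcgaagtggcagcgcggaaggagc
Cdt1: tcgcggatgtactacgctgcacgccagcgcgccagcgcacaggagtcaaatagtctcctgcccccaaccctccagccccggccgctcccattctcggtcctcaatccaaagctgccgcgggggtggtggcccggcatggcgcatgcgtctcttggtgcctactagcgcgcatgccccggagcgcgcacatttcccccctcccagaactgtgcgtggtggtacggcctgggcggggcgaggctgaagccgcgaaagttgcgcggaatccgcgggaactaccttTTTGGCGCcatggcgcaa

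A promoter window was found for 36 of the 45 members, 42 windows in all, since some genes have several starts. An E2F match was present in 16 of the 36 members. Counted by window, 38.1% of the member windows held one, against 2.26% of the 32851 windows of the whole table. Among members with a window, 4 of the 15 that fell in FF with 4OHT had a match, and 12 of the 21 that did not pass the test. The Mcm6 window held 3 matches, of which 2 overlap each other. In the Mcm7 window printed, the 2 matches began 165 bases before and 17 bases after its gene start. Mcm7 has another window, at chr5:138171217-138171516, with no match. CCAAT, the box bound by NF-Y, was in 57.1% of member windows and 37.4% of all windows. TTTGAA, the core of the CHR element of late cell cycle genes, was in 11.9% of member windows and 17.9% of all. These letters describe the windows only, and nothing was measured on binding.

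Library totals ran from 24730213 to 49277884 counts, so 1 count was worth between 0.0203 and 0.0404 CPM. Ddx41 itself was at 112, 82.0 and 73.7 CPM in the FF ethanol libraries and at 14.6, 16.5 and 17.7 CPM after 4OHT, and stood at 41.3 to 58.4 CPM in Het 4OHT against 68.0 to 79.1 CPM in Het ethanol. Library C of FF in ethanol (FF_EtOH C) and library C of WT in 4OHT (WT_4OHT C) went against their labels. At 53 genes that part the other 5 WT from the other 5 FF libraries by at least 4-fold, the first lay nearer the WT libraries at 53 and the second nearer the FF libraries at 53. The main counts of members called are given with and without them. Most values of single genes, and the WT ratios and counts of libraries lying apart, are given with them only. Het_4OHT A also stood apart from its group, with Gins2 at 60.5 CPM against 31.9 and 39.6 CPM and Pola1 at 55.6 CPM against 123 and 145 CPM. So did FF_EtOH A, with Rfc4 at 23.2 CPM against 42.3 and 45.4 CPM and Cdc45 at 165 CPM against 128 and 126 CPM. Fits without FF_EtOH C have only FF_EtOH A and FF_EtOH B as FF ethanol libraries. Rn45s, the ribosomal RNA precursor, was at 5987, 18286 and 41159 CPM in the 3 FF_4OHT libraries, 14895 CPM in Het_4OHT A and 1964 to 6594 CPM in the other libraries.

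The first question was what 48 h of 4OHT did to these genes when both Ddx41 alleles were floxed. In FF, 19 of the 45 members fell and 0 rose at an adjusted p below 0.05 (edgeR's quasi-likelihood test, adjusted over all 12859 genes). The members that fell amount to 42.2% of the list, beside 8.29% of all genes tested that fell and 5.16% that rose. The median log2 fold change was -0.32 over the members and -0.02 over all genes, and 44 of 45 members had a value below 0. The exception was Cdt1, at 0.16. All 3 FF_4OHT libraries lay below all 3 FF ethanol libraries at 33 members and overlapped them at 12, beside 21.5% of all genes lying below. At 22 members they also lay below each of the other 15 libraries, beside 8.30% of all genes.

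Without FF_EtOH C and WT_4OHT C, 15 members fell, beside 7.52% of all genes, and 12 of these are among the 19. Mcm7, Prim1, Prim2, Pola2, Pold1, Pole, Tk1, Rrm2 and Clspn then had log2 fold changes from -0.88 to -0.63. The 7 that no longer passed were Lig1, Timeless, Mcm10, Gins2, Gins4, Pcna and Rrm1, and Ccne1 (-0.65), Orc1 (-0.51) and Cdc6 (-0.41) passed in that fit. Without FF_EtOH C, the FF_4OHT libraries lay below the remaining ethanol libraries at 34 members, beside 26.8% of genes. Leaving out FF_4OHT C alone left 11 members and leaving out FF_4OHT B alone left 12. Among the 19, Lig1 lost its call without FF_EtOH C (adjusted p 0.0566), Rrm2 without FF_4OHT C (adjusted p 0.0567) and Pold2 without FF_EtOH A, FF_4OHT B or FF_4OHT C. Mcm10, Gins2, Gins4 and Pcna lost theirs without any single FF library, and Rrm1 and Timeless without any but FF_EtOH A.

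**Figure D1:**
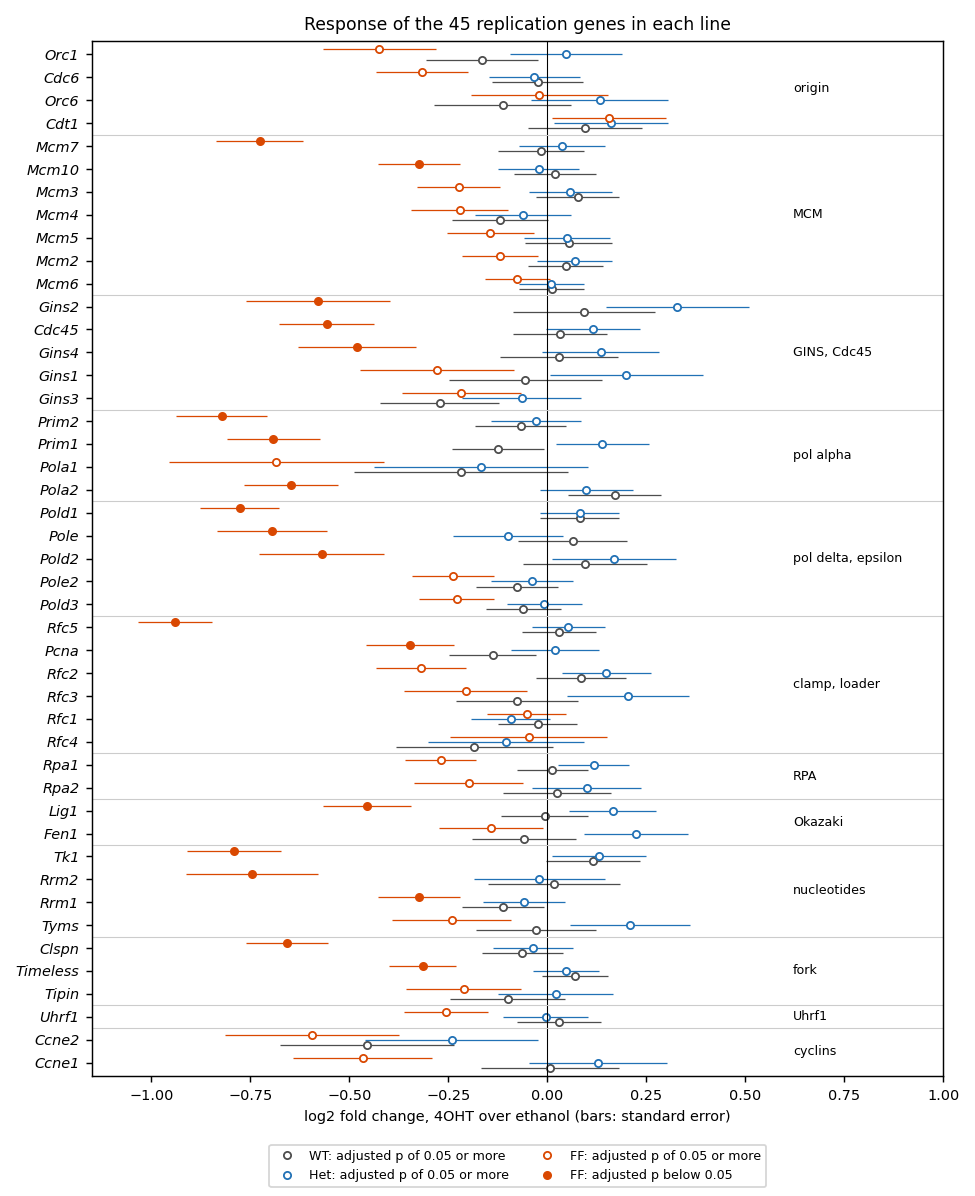
Log2 fold change of 4OHT over ethanol (horizontal axis) for each of the 45 genes, grouped by role, in WT (grey), Het (blue) and FF (orange); bars are standard errors, and filled points have an adjusted p below 0.05. The filled points are 19 genes of FF, and all FF values but that of Cdt1 lie left of 0.

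The 4 genes of origin recognition and licensing held 0 calls, and their median log2 fold change was -0.17. Orc1, the ATPase subunit of the origin recognition complex, was at 23.2, 22.8 and 18.9 CPM in FF ethanol and 16.9, 16.5 and 14.9 CPM in 4OHT, a log2 fold change of -0.42 ± 0.14 (SE) with an adjusted p of 0.0604. Cdc6, which brings the helicase ring to the origin, had -0.32 (adjusted p 0.0818). Orc6 stood at -0.02. Cdt1, the partner of Cdc6 in loading, had 131, 103 and 99.7 CPM in ethanol and 123, 122 and 127 CPM in 4OHT. The 4OHT values fall inside the ethanol range, and the adjusted p was 0.524.

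Among the 6 subunits of the helicase ring, Mcm7 fell and the other 5 did not pass the test. Mcm7 (chr5:138164583-138172422) was at 384, 357 and 373 CPM in FF ethanol and 232, 232 and 209 CPM in 4OHT, which is 60.4% of the ethanol mean. Each 4OHT library lay below each ethanol library, and the log2 fold change was -0.73 ± 0.11 (adjusted p 0.000629). In WT the 6 libraries lay between 388 and 413 CPM and in Het between 303 and 411 CPM. Mcm6 was at 521, 573 and 573 CPM in FF ethanol and 528, 537 and 516 CPM in 4OHT. These ranges overlap, with a log2 fold change of -0.08 and an adjusted p of 0.594. Mcm2, Mcm3, Mcm4 and Mcm5 had log2 fold changes from -0.22 to -0.12. The FF_4OHT libraries lay below the FF ethanol libraries for Mcm2, Mcm3 and Mcm4, beside 21.5% of all genes, and overlapped them for Mcm5. For Mcm3 they also lay below every other library, beside 8.30% of all genes. Mcm10, which helps the loaded ring become active, fell by 0.32 on the log2 scale (adjusted p 0.0477).

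The ratio of Mcm7 to the mean of Mcm2 to Mcm6 describes the ring within each library. It was computed because Mcm7 was the subunit that fell, so it is given with no test. In FF ethanol it was 0.829, 0.831 and 0.865, and in FF 4OHT 0.585, 0.568 and 0.540. The 3 values with 4OHT lie below the 3 without it, also if the value of 0.865, from the library labelled FF_EtOH C, is left out. Mean ratios were 0.793 in ethanol and 0.800 in 4OHT for Het and 0.881 and 0.859 for WT. Exons of Mcm7 share 12.6% of their bases with the genes Ap4m1, Cops6, Mir25 and Mir93, and with the strand setting unknown, reads in that stretch cannot be assigned with certainty.

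Cdc45 and 2 of the 4 GINS subunits fell. Cdc45 (chr16:18780447-18811987) was at 165, 128 and 126 CPM in FF ethanol and 94.9, 94.7 and 95.7 CPM in 4OHT. The log2 fold change was -0.56 ± 0.12 (adjusted p 0.00641), and without the 2 libraries that go against their labels it was -0.63 (adjusted p 0.00851). Gins2 fell by 0.58 (adjusted p 0.0457) and Gins4 by 0.48 (adjusted p 0.0433), while Gins1 at -0.28 and Gins3 at -0.22 did not pass. Of the exon bases of Gins2, 67.3% are shared with Gse1 on the other strand, so its value is uncertain.

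Polymerase alpha and primase, the enzyme that starts every new strand, had a median log2 fold change of -0.69, and 3 of its 4 genes fell, with and without FF_EtOH C and WT_4OHT C. Prim2 (chr1:33453810-33669795), the regulatory primase subunit, was at 67.2, 51.4 and 58.7 CPM in FF ethanol and 36.7, 32.2 and 31.2 CPM in 4OHT. Its log2 fold change was -0.82 ± 0.12 (adjusted p 0.000407). Prim1 (chr10:128015168-128030037), the catalytic primase subunit, went from 59.7, 62.4 and 69.6 CPM to 36.9, 44.3 and 37.4 CPM. This is -0.69 ± 0.12 (adjusted p 0.0015), with no overlap between the groups. Pola2 (chr19:5940542-5964202), the accessory subunit, had 119, 90.7 and 82.4 CPM in ethanol and 62.5, 61.4 and 62.2 CPM in 4OHT. Its ethanol libraries were spread widely and its 4OHT libraries hardly at all, and the log2 fold change was -0.65 ± 0.12 (adjusted p 0.00241). Pola1, the catalytic subunit, had a similar value of -0.68 but a standard error of 0.27, and its adjusted p was 0.109. The 4OHT libraries of FF lay below its ethanol libraries for Pola1 too, at 77.2, 76.2 and 60.6 CPM against 95.5, 125 and 124 CPM. Pola1 also varied within other groups, with Het_4OHT A at 55.6 CPM and the library labelled WT_EtOH C at 90.01 CPM, where WT_EtOH A and B had 145 and 141 CPM.

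The catalytic subunits of both elongating polymerases fell. Pold1 (chr7:44532746-44548849), of polymerase delta, was at 146, 123 and 127 CPM in FF ethanol and 76.1, 79.9 and 75.8 CPM in 4OHT. That is 58.3% of the ethanol mean and a log2 fold change of -0.78 ± 0.10 (adjusted p 0.000256). Pole (chr5:110286306-110337474), of polymerase epsilon, was at 123, 116 and 111 CPM against 72.0, 77.5 and 67.0 CPM. Its log2 fold change was -0.70 ± 0.14 (adjusted p 0.00426), and Pole in Het_4OHT A, at 85.0 CPM, was the nearest of the other libraries. Pold2, an accessory subunit, fell by 0.57 (adjusted p 0.0252), and Pold3 at -0.23 and Pole2 at -0.24 did not pass.

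**Figure D2:**
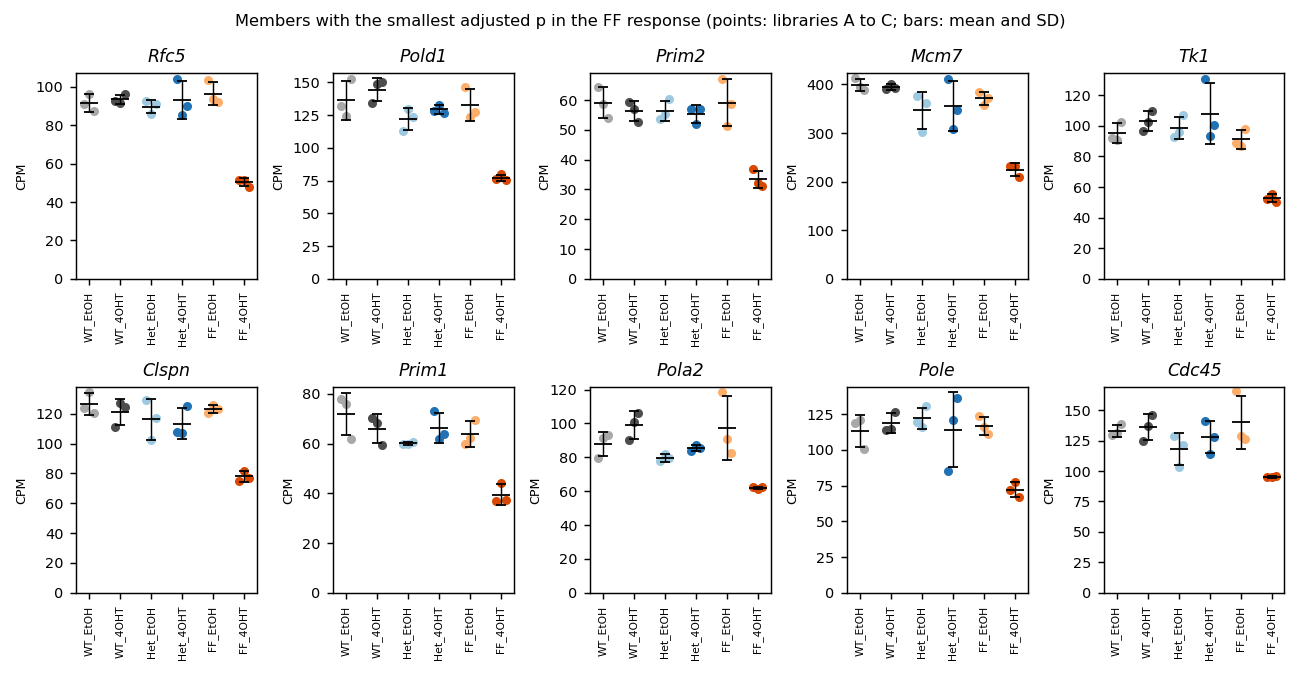
CPM (vertical axes, from 0) of the 10 members with the smallest adjusted p in the FF response, in every library of the 6 groups; points are libraries, bars the mean and SD (n = 3). The 3 FF_4OHT points lie below the points of every other group in each of the 10 panels, beside 8.30% of all genes. The 10 genes were chosen by the FF response itself, so this is not separate evidence.

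In the clamp loader, 1 of 5 subunits fell. Rfc5 (chr5:117378103-117389047) had the smallest adjusted p of the 45 members. It was at 103, 93.9 and 92.1 CPM in FF ethanol and 51.4, 51.5 and 47.8 CPM in 4OHT, so each treated library held close to 52.1% of the ethanol mean. The log2 fold change was -0.94 ± 0.09 (adjusted p 4.97e-05), and -0.97 (adjusted p 0.000327) without the 2 libraries that go against their labels. The WT libraries lay between 87.5 and 96.5 CPM and the Het libraries between 85.1 and 104 CPM. Rfc1, Rfc2, Rfc3 and Rfc4 had log2 fold changes of -0.05, -0.32, -0.21 and -0.05, with adjusted p values of 0.0741 and above. The FF_4OHT libraries lay below the FF ethanol libraries for Rfc2 and Rfc3, beside 21.5% of all genes, and overlapped them for Rfc1 and Rfc4. The Rfc4 value ran from -0.29 to 0.13 over 16 alternatives, as FF_EtOH A was at 23.2 CPM and FF_EtOH B and C at 42.3 and 45.4 CPM.

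Set against the mean of the other 4 subunits, Rfc5 stood at 1.06, 0.934 and 0.918 in FF ethanol and 0.573, 0.552 and 0.549 in 4OHT. This ratio too was chosen for the fall of Rfc5 and carries no test. Het went from 0.884 to 0.913 and WT from 0.898 to 0.924. Exons of Rfc5 share 10.7% of their bases with Wsb2 on the other strand. Among the subunits it is set against, Rfc2 shares 15.1% with Lat2 and Rfc4 12.7% with Eif4a2, also on the other strand. Pcna, the clamp that the loader closes around DNA, fell by 0.35 (adjusted p 0.0488).

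**Figure D3:**
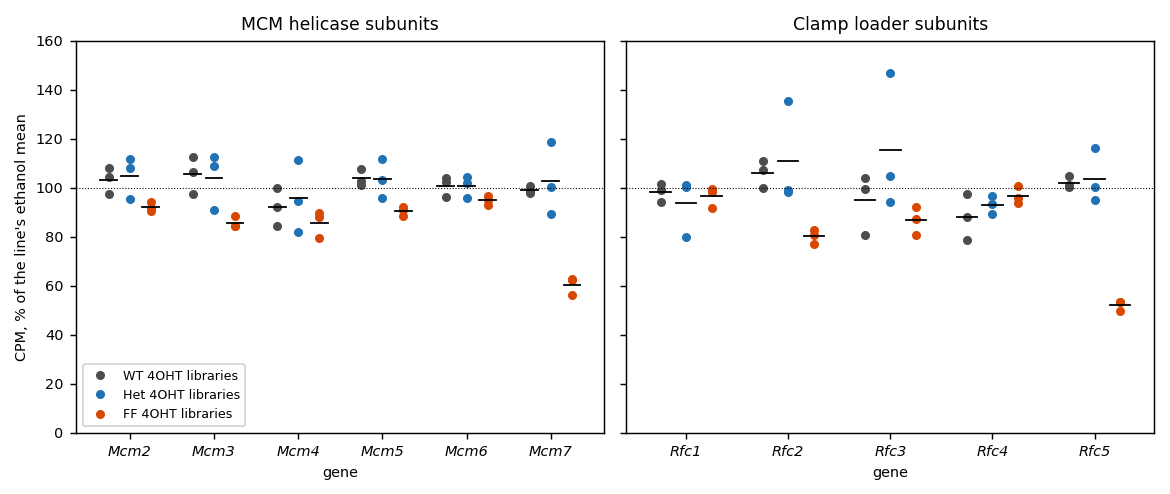
CPM in each 4OHT library as a percentage of the same line's ethanol mean (vertical axis, from 0) for the subunits of the helicase ring (left) and of the clamp loader (right); points are libraries, short bars their mean, and the dotted line is 100%. The FF means of Mcm7 and Rfc5 are 60.4% and 52.1%, while the FF means of the other subunits shown lie at 80.1% or above.

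Thymidine kinase and both parts of ribonucleotide reductase fell. Tk1 (chr11:117815526-117826092), which salvages thymidine, was at 88.7, 86.7 and 98.1 CPM in FF ethanol and 52.4, 55.5 and 50.2 CPM in 4OHT. The 2 sets are far apart, with a log2 fold change of -0.79 ± 0.12 (adjusted p 0.000663). Rrm2, the subunit of ribonucleotide reductase whose level rises in S phase, was at 442, 419 and 314 CPM against 233, 257 and 210 CPM. It fell by 0.75 ± 0.17 (adjusted p 0.00819), and Rrm1, the large subunit, fell by 0.32 (adjusted p 0.049). Tyms, which makes thymidylate, had -0.24 and did not pass.

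Claspin (Clspn, chr4:126556935-126593903), the adaptor that passes the replication checkpoint signal to Chk1, was at 121, 126 and 123 CPM in FF ethanol and 75.1, 81.8 and 77.1 CPM in 4OHT. Both sets are tight, and the log2 fold change was -0.66 ± 0.10 (adjusted p 0.000777). Timeless, which travels with the fork, fell by 0.32 (adjusted p 0.0212), and its partner Tipin had -0.21 and did not pass. Lig1, the ligase that seals Okazaki fragments, fell by 0.46 (adjusted p 0.0135), from 195, 197 and 220.2 CPM to 148, 151 and 147 CPM. Fen1, the nuclease that trims those fragments, had -0.14, but 84.2% of its exon bases are shared with Tmem258 and Gm10143 on the other strand. Rpa1 and Rpa2, which coat single strands, had -0.27 and -0.20, and Uhrf1, which brings DNA methylation to new strands, had -0.26. Cyclins E1 and E2 had -0.47 and -0.59 with adjusted p values of 0.0911 and 0.0868. Of the exon bases of Ccne2, the gene of cyclin E2, 17.4% are shared with Ints8 on the other strand.

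**Figure D4:**
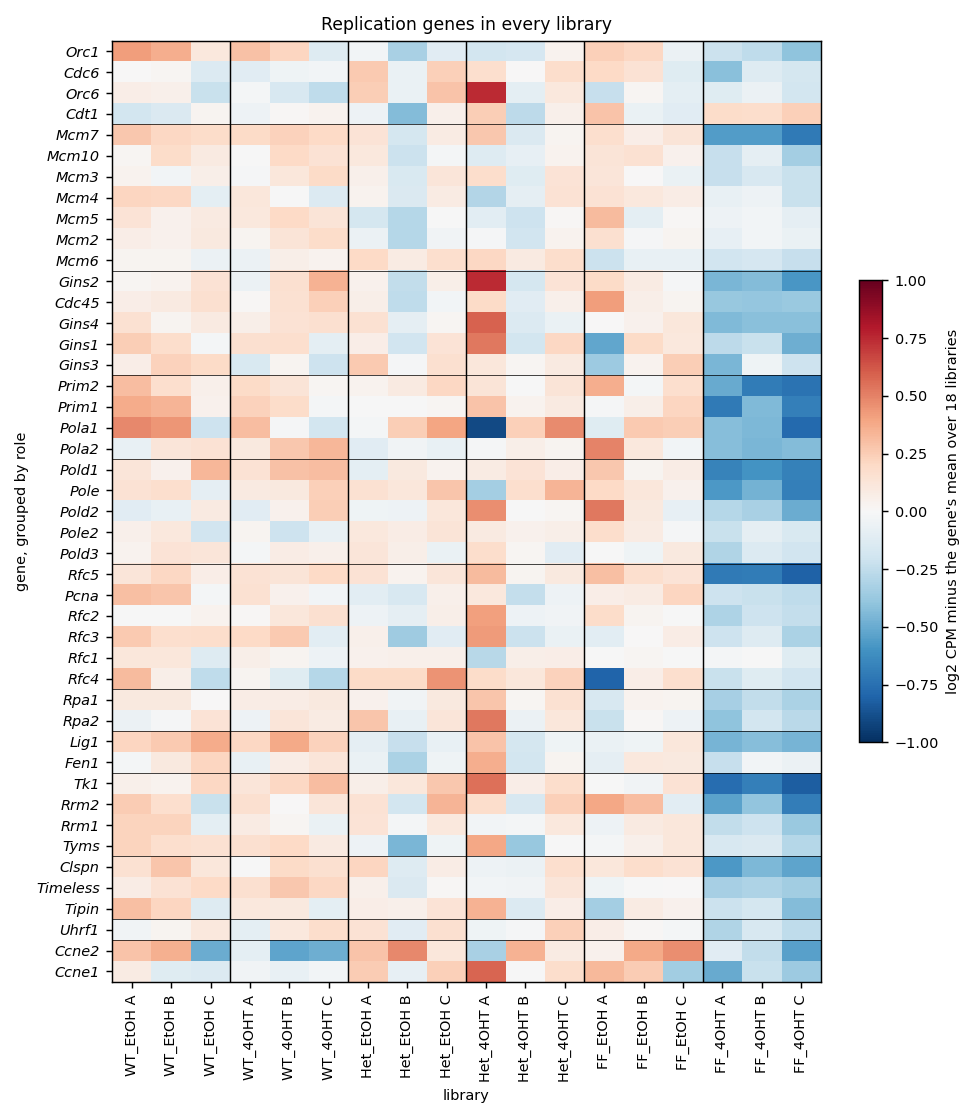
Each of the 45 genes (rows, grouped by role) in each of the 18 libraries (columns), coloured by log2 CPM minus the gene's mean over the 18 libraries, on a scale from -1 to 1. The 3 FF_4OHT columns lie below the gene's mean for 44 of the 45 genes each; Het_4OHT A shows red and blue cells that the other Het_4OHT libraries do not.

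In Het and WT the same treatment changed 0 of the 45 members by edgeR's test, and 0 had an unadjusted p below 0.05. The background there was 0.0156% of genes called in Het and 0% in WT. DESeq2 and limma voom called 0 members in both lines as well. The members' median log2 fold change was 0.05 in Het, with values from -0.24 to 0.33, and -0.01 in WT, with values from -0.46 to 0.17. At the upper end in Het stood Gins2, which was at 37.2, 30.5 and 37.4 CPM in ethanol and 60.5, 31.9 and 39.6 CPM in 4OHT, so that Het_4OHT A alone was high. At the lower end in WT stood Ccne2, at 57.9, 60.7 and 33.7 CPM in ethanol and 44.3, 32.9 and 33.9 CPM in 4OHT. The low ethanol value is that of the library labelled WT_EtOH C. All 4OHT libraries lay below all ethanol libraries at 0 members in Het, beside 2.71% of genes, and at 1 member in WT, Gins3, beside 1.97% of genes. They lay above at 2 members in Het, Pola2 and Prim1, beside 2.23% of genes, and at 0 in WT, beside 2.85%.

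Whether the FF response differed from the others was tested directly. Against the WT response, 7 members were lower in FF and 0 higher, beside 2.30% of genes called in either direction, and against the Het response 10 were lower and 0 higher, beside 2.50% of genes. The FF libraries enter both differences, so these are not separate pieces of evidence. For Rfc5 the difference in log2 fold change was -0.97 ± 0.13 from WT (adjusted p 0.00332) and -0.99 ± 0.13 from Het (adjusted p 0.00254). For Pold1 both differences were -0.86 ± 0.14, with adjusted p values of 0.00772 and 0.00635. Tk1 differed by -0.91 from WT (adjusted p 0.012) and by -0.92 from Het (adjusted p 0.0108). Pola2, Prim2, Mcm7 and Clspn had differences of -0.82, -0.75, -0.71 and -0.59 from WT, with adjusted p values from 0.02 to 0.0423. From Het they had -0.75, -0.79, -0.76 and -0.62, with adjusted p values from 0.017 to 0.0328.

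Prim1, Cdc45 and Lig1 passed in the difference from Het alone, at -0.83, -0.67 and -0.62. Their differences from WT were -0.57, -0.59 and -0.45. Whether the 2 differences differ from each other was not tested. Without FF_EtOH C and WT_4OHT C, 3 members remained in the difference from WT: Rfc5 at -0.98 (adjusted p 0.0177), Pold1 at -0.86 (adjusted p 0.0332) and Pola2 at -0.87 (adjusted p 0.0332). The difference from Het then held 9 members, 8 of them among the 10. When only the 4 groups compared entered the fit, 2 members remained in the difference from Het. Single libraries moved both counts. The 7 became 3 without WT_EtOH B, WT_4OHT B or FF_4OHT C, and 4 without WT_EtOH A, WT_4OHT C, FF_EtOH A, FF_4OHT A or FF_4OHT B. The 10 became 3 without FF_4OHT C or Het_EtOH B, 4 without Het_EtOH A, 5 without FF_4OHT B, and 6 without FF_4OHT A, Het_EtOH C or Het_4OHT C.

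Without 4OHT, few of these genes parted the lines. FF and WT in ethanol differed at 0 members by edgeR's test, beside 0% of all genes, with 1 member at an unadjusted p below 0.05 (Lig1, -0.28), and DESeq2 and limma voom also called 0. The library labelled FF_EtOH C lies with WT in this comparison, and without it and WT_4OHT C the count of members was again 0, beside 4.71% of all genes. Het and WT in ethanol differed at 2 members, beside 23.7% of all genes. Lig1 was at 191, 174 and 194 CPM in Het and 236, 243 and 263 CPM in WT, a log2 difference of -0.41 ± 0.11 (adjusted p 0.0125). Orc1 was at 19.3, 15.8 and 18.2 CPM against 26.3, 25.3 and 21.1 CPM, a difference of -0.45 ± 0.14 (adjusted p 0.0306). Neither pair of groups overlaps. The Orc1 and Lig1 calls are not firm: 0 members remained without Het_EtOH B, and 1 without WT_EtOH A, WT_EtOH B, WT_EtOH C or Het_EtOH C. Over all genes, 1335 were lower and 1714 higher in Het, and with scaling to the library total alone these became 900 and 2185, and that scaling moved the median of all genes from -0.03 to 0.10. Under it Orc1 (-0.31) and Lig1 (-0.28) did not pass, while Cdc6 at 0.32 (adjusted p 0.0432) and Mcm6 at 0.29 (adjusted p 0.0175) passed as higher in Het.

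Per kilobase of exon, the ethanol libraries held most of Pcna, at 176 ± 19.8 CPM per kilobase (SD over 9 libraries). Rrm2 at 134, Mcm6 at 131 and Mcm3 at 130.2 CPM per kilobase came next, and they do not differ beyond their SDs of 20.9, 11.8 and 7.93. The lowest levels on this scale were those of Gins2, Gins3 and Orc1, at 9.04, 8.30 and 6.10 CPM per kilobase. Gins2 shares 67.3% of its exon bases with Gse1 and Orc1 10.8% with Gm12743, so their places are uncertain. The genes with the strongest falls were spread over this scale: Mcm7 stood at 84.1, Pold1 at 26.8, Rfc5 at 19.8 and Prim2 at 9.80 CPM per kilobase.

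Other genes of the same processes were read from lists drawn up beside the members, to be set against the 8.29% of all genes that fell in FF and the 5.16% that rose. Of 15 other origin and helicase genes, 7 fell in FF and 0 rose, with a median of -0.37. Mtbp, which helps fire origins, fell by 1.20 ± 0.14 (adjusted p 0.000134), from a mean of 56.2 to 24.5 CPM, and Recql4, a helicase that acts at origins, fell by 0.94 ± 0.14 (adjusted p 0.000521). Mcm8 and the kinase Cdc7, which phosphorylates the helicase ring, fell by 0.93 and 0.64. Of 16 other polymerase, clamp and fragment genes, 2 fell, a share of 12.5% that is near that of all genes: Chtf18, of an alternative clamp loader, by 0.74 (adjusted p 0.00179) and topoisomerase Top2a by 0.70 (adjusted p 0.00917). Of 11 genes for chromatin assembly behind the fork, 5 fell, among them the histone chaperone Asf1b by 0.70, the methyltransferase Dnmt1 by 0.55, Ssrp1 by 0.47 and Rbbp7 by 0.44. Cdc7 lost its call without FF_4OHT A or FF_4OHT C, Top2a without FF_4OHT C, and Rbbp7 without FF_EtOH B or FF_4OHT C.

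Of 15 further genes of nucleotide supply, 3 fell and 1 rose, beside 8.29% and 5.16% of all genes. Cad, which opens pyrimidine synthesis, fell by 1.01 ± 0.15 (adjusted p 0.000668), from 267 ± 19.8 to 132 ± 10.6 CPM (SD, n = 3), and Shmt1 and Umps fell by 0.59 and 0.48. Samhd1, which destroys deoxynucleotides, rose by 0.55 (adjusted p 0.0096), from 75.4 to 110.4 CPM, and lost its call without FF_4OHT C (adjusted p 0.0667). Among 25 E2F, RB and CDK regulators, 5 fell and 1 rose. Tfdp1, the dimer partner of E2F factors, fell by 0.64 (adjusted p 0.00188), and E2f7, E2f8 and E2f4 fell by 0.77, 0.84 and 0.69. The sizes for E2f8 and E2f4 lean on FF_EtOH A. It was at 228 CPM for E2f8, against 141 and 143 CPM in FF_EtOH B and C, and at 198 CPM for E2f4, against 126 and 128 CPM. Cdkn1a, the CDK inhibitor p21, rose from 121 to 250.6 CPM, a log2 fold change of 1.05 ± 0.31 (adjusted p 0.0338), but lost its call in 6 of 16 alternatives. Its ethanol values reached 216 CPM in Het_EtOH B and 198 CPM in the library labelled WT_EtOH C.

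Of 20 mitosis genes, 17 fell and 0 rose, with a median of -0.63, beside 19 of 45 and -0.32 for the replication genes and 8.29% and -0.02 for all genes. Kif20a, a kinesin of cytokinesis, fell by 0.84 ± 0.09 (adjusted p 8.33e-05), and Ccna2, Ccnb2 and Prc1 fell by 0.85, 0.85 and 0.64. Without FF_EtOH C and WT_4OHT C, 7.52% of all genes fell. In that fit 16 of 20 mitosis genes, 5 of 15 origin and helicase genes and 4 of 11 chromatin assembly genes fell. So did 6 of 25 regulators, 3 of 15 nucleotide supply genes and 2 of 16 polymerase, clamp and fragment genes.

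**Figure D5:**
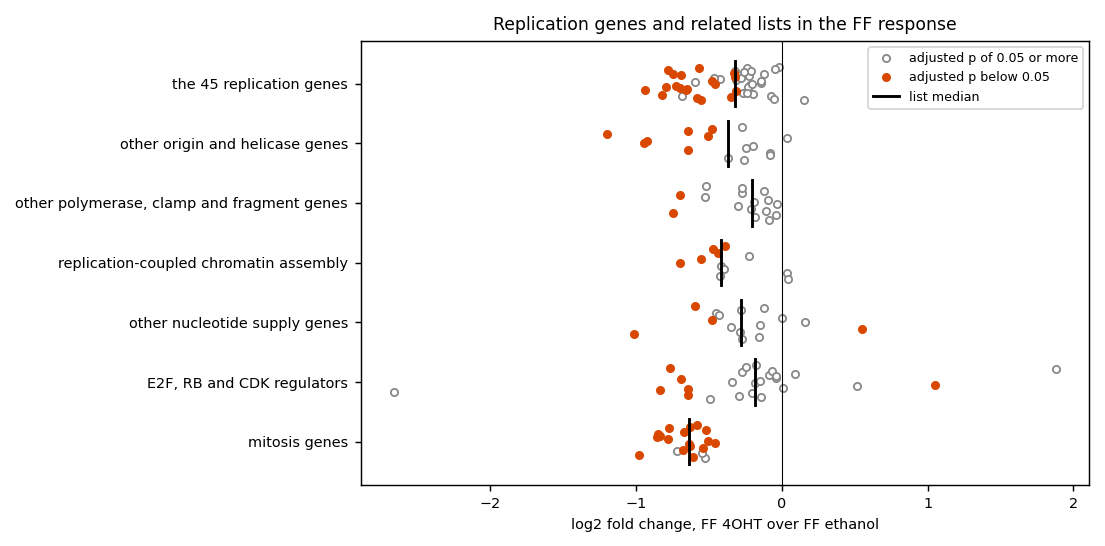
Log2 fold change of FF 4OHT over FF ethanol (horizontal axis) for each tested gene of the 45 replication genes and of 6 related lists; points are genes, filled where the adjusted p is below 0.05, and black bars are list medians. The median lies at -0.32 for the replication genes and at -0.63 for the mitosis genes.

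Markers of other cell types moved beside these falls. Summed over 6 monocyte markers, FF ethanol libraries held 354 to 438 CPM and FF 4OHT libraries 1428 to 1935 CPM. In FF, 4 of the 6 rose, beside 5.16% of all genes: Lyz2, Csf1r, Ctss and Mpeg1. Without FF_EtOH C and WT_4OHT C the same 4 rose. The sums were 324 to 679 CPM in Het ethanol and 416 to 1081 CPM in Het 4OHT. In WT they were 452 to 593 CPM and 454 to 699 CPM. All 6 markers had log2 fold changes above 0 in Het and WT too, with medians of 0.61 and 0.15, and 0 passed. Of 8 myeloid progenitor markers, Mpo and Myb fell, and the list's median log2 fold change was -0.32. Their summed level was 6576 to 10133 CPM in FF ethanol, with the highest value in FF_EtOH C and 9426 CPM the next, and 5054 to 5857 CPM in FF 4OHT. Without FF_EtOH C and WT_4OHT C, Mpo passed at -1.61 (adjusted p 0.0205) and Myb at -0.29 did not (adjusted p 0.145), and the median was -0.09. Of 7 neutrophil markers Mmp8 rose, by 2.63 on the log2 scale, and the summed level was 594 to 1404 CPM in ethanol and 977 to 1690 CPM in 4OHT. Of 4 platelet markers Vwf rose, from 1.85 to 6.72 CPM, and of 2 tested lymphoid markers Nkg7 fell, from 9.49 to 4.86 CPM. Mmp8, Vwf and Nkg7 also passed without those libraries. Of 4 mast cell, 1 erythroid and 3 stromal markers tested, 0 passed. Without those libraries the stromal marker Pdgfrb, at 1.43 and 1.24 CPM in FF_EtOH A and B, passed as lower. The hemoglobin genes Hba-a1 and Hbb-bs and the lymphoid markers Cd3e, Cd3g and Ebf1 had 0 counts in FF. The members' median deviation from their mean over all libraries was -0.30 in FF_4OHT A, whose Rn45s lay within the range of the ethanol libraries, beside -0.22 in B and -0.34 in C. The part of these markers, or of Rn45s, in the falls was not tested.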

How the data were processed

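RNA-seq read counts per gene symbol were deposited by the authors for 18 libraries as whole numbers, not normalized. The submitters' processing notes name featureCounts 1.5.2 of Subread, HISAT2 2.0.5, FastQC 0.11.7 and CASAVA 1.4, with the mm10 build. Annotation, strand setting and handling of multi-mapping reads were not given in the sources used here. The members and lists were chosen with earlier results of these data known.

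Counts were tested with edgeR 4.0.16 in R 4.3.3: a joint fit of all 18 libraries, a mean for each group, TMM scaling, filterByExpr with a minimum count of 10, robust quasi-likelihood F tests, Benjamini-Hochberg adjustment over 12859 genes and a threshold of 0.05. CPM are TMM-scaled, and standard errors derive from the F statistic. The scripts were tested on simulated data. Alternatives used other scaling and filters, DESeq2 1.42.0, limma 3.58.1 voom, fewer groups, the letter as a replicate block, and fits without libraries. Counts were identical in 0 of 153 pairs of libraries. Printed with every library are the 10 members with the smallest adjusted p in the FF response and any member called in another comparison; in the other lists, up to 4 called genes with the smallest adjusted p. Further members were given values because a count or a subunit comparison turned on them, chosen after their values were seen, as were the genes that part WT from FF (at least 2 CPM in 1 line, and at least 4-fold above the other after adding 0.5 CPM).

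Between Het libraries of the same letter, deviations from the group means correlated across treatments at 0.48, 0.70 and 0.40 for A, B and C. The blocked fit of Het also called 0 members. In WT the values were 0.39, -0.02 and 0.25 and in FF 0.17, 0.18 and 0.07. Over the members alone they were 0.47, 0.73 and 0.29 in Het, 0.86, -0.46 and 0.66 in WT and 0.03, 0.56 and -0.13 in FF. Values for C in WT and FF include the libraries that go against their labels. Libraries of unlike letters were not compared, so these values do not settle whether letters pair in any line. The fit reported pairs no libraries. Exon lengths and positions are from GENCODE M21 (GRCm38), in which all 45 members matched.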

Additional observations from a re-analysis of the deposited data

Results flagged for a closer look

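The change with 4OHT differed between FF and WT, by a test of the difference itself (edgeR, adjusted over all genes), at 7 members. The share of all genes called in that test was 2.30%. The difference in log2 fold change was -0.97 for Rfc5, -0.91 for Tk1, -0.86 for Pold1, -0.82 for Pola2, -0.75 for Prim2, -0.71 for Mcm7 and -0.59 for Clspn. The 3 FF_4OHT libraries lay below the 3 FF ethanol libraries at each of them, beside 21.5% of all genes. Without FF_EtOH C and WT_4OHT C, only Rfc5, Pold1 and Pola2 passed. Mcm7, Tk1, Prim2 and Clspn then had adjusted p values from 0.0574 to 0.139 by the same edgeR test.

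The change differed between FF and Het at 10 members, beside 2.50% of all genes. The difference was -0.99 for Rfc5, -0.92 for Tk1, -0.86 for Pold1, -0.83 for Prim1, -0.79 for Prim2, -0.76 for Mcm7, -0.75 for Pola2, -0.67 for Cdc45, -0.62 for Clspn and -0.62 for Lig1. Without FF_EtOH C and WT_4OHT C, Clspn and Lig1 no longer passed against Het (edgeR, adjusted p 0.0613 and 0.104). Both sets of differences share the FF libraries.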

How the results depend on the processing

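The members' median in FF stayed between -0.35 and -0.28 over 16 alternatives, and 10 of the 19 falls kept their call in each: Rfc5, Pold1, Prim2, Mcm7, Tk1, Clspn, Prim1, Pola2, Pole and Cdc45. The other 9 lost it in some, with adjusted p values up to 0.232. The number of members that fell was 15 with DESeq2's scaling, 17 with library totals, 13 without a filter, 16 with at least 5 CPM in 3 libraries, 21 with DESeq2, 15 with limma voom, 18 with only the compared groups, 16 without WT_EtOH C and the 2 libraries against their labels, and 11 to 15 with 1 library left out. No member rose in any of them, and Het, WT and FF against WT in ethanol gave 0 members throughout. No value changed sign with its call.

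With the replicate block, 22 members fell in FF, and 11 and 13 differed from WT and Het. Whether FF libraries of the same letter are pairs is not known. FF minus WT, 7 in the fit reported, was 11 with DESeq2, 3 without FF_EtOH C and WT_4OHT C, also 3 without WT_EtOH C as well, and 3 to 7 with 1 library left out. FF minus Het, 10, was 14 with DESeq2, 2 with only the compared groups and 3 to 11 with 1 library left out. In both, Rfc5 and Pold1 were the members called in all 22 alternatives. Het against WT in ethanol, 2, was 3 with DESeq2 (Mcm6 added, higher in Het at 0.17, adjusted p 0.0211), 1 without a filter, 1 with at least 5 CPM, 1 with only the compared groups, 1 without the 3 libraries and 0 to 2 with 1 library left out.

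Over all genes, calls in FF numbered 1729 (700 without FF_4OHT C to 2763 with the replicate block). They were 2 in Het (0 to 17), 0 in WT (0 to 4), 296 in FF minus WT (72 to 648) and 321 in FF minus Het (57 to 755). FF against WT in ethanol gave 0 and, without FF_EtOH C and WT_4OHT C, 614. Het against WT in ethanol gave 3049 (2029 to 3474). The cause of these shifts was not tested. The members' median turned to -0.02 in Het without Het_EtOH B and to 0.08 in Het against WT with library totals. In fits that left 2 libraries in a group the spread was pooled over all groups. Intervals and p-values cover these libraries only.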
